A study of Homo sapiens with 8 samples.

Results

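The genes examined were YAP1, WWTR1 (which encodes TAZ), the 4 TEAD genes and the target genes CCN1, CCN2, ANKRD1 and AMOTL2, 10 genes in all of the 20263 in the deposited table. They were chosen by symbol, through the human Ensembl identifier of each row, and all 10 had a row. PANC-1, an established human line from a pancreatic ductal carcinoma, was cultured for 24 h with 10 μM eupalinolide B (EB), a sesquiterpene lactone from Eupatorium lindleyanum, or with the vehicle DMSO. Each group had 4 libraries, described in the methods as biological replicates, and the cell line was the only model sequenced. The same methods also speak of triplicates for each group, whereas the deposited table holds 4 columns per group. The columns of the table are headed C and H, which were read as control (DMSO) and EB because the series has no other group. Values are TPM, in which the reads of a gene are divided by its length and every library is scaled to 1 fixed sum, and the number of reads behind them is unknown.

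YAP and TAZ are coactivators that do not bind DNA themselves. In the nucleus they act through the TEAD transcription factors and switch on genes of growth, matrix and cytoskeleton. The Hippo kinase cascade, from STK3 and STK4 to LATS1 and LATS2, phosphorylates both proteins, which holds them in the cytoplasm or sends them to degradation, so that their activity is set largely after translation and an mRNA level does not report it. CCN1 and CCN2 (also known as CYR61 and CTGF), ANKRD1 and AMOTL2 are the genes most often read as the output of YAP and TAZ.

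The bases before 3 target genes are shown because they carry the letters that TEAD factors recognise, CATTCC or, on the opposite strand, GGAATG, while the 3 genes stood at very different levels in these cells. Sequences are from RefSeq (GRCh38.p14), run 5′ to 3′ on the strand of the gene, and cover the 250 bases before its start. Capitals mark CATTCC or GGAATG, and in ANKRD1 also 1 match to TGANTCA. This is a loosened pattern for AP-1 sites that admits any base at N.
CCN2, chr6:131951373-131951622, minus strand: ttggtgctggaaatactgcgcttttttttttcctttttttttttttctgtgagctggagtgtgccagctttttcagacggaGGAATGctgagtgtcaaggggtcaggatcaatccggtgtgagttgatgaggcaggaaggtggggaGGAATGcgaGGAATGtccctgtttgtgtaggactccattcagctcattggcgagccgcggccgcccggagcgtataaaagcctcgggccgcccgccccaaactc
ANKRD1, chr10:90921088-90921337, minus strand: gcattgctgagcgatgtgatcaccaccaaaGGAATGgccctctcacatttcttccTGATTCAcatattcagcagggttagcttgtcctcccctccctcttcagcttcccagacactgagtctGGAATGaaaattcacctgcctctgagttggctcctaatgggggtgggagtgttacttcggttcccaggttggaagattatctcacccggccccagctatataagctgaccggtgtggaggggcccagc
AMOTL2, second listed start, chr3:134374448-134374697, minus strand: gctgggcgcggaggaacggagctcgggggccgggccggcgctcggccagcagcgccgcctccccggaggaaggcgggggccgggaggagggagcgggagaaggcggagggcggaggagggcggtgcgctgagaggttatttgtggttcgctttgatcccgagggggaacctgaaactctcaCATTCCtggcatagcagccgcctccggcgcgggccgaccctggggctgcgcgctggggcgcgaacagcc
CCN2 held the TEAD letters 3 times, beginning 169, 104 and 95 bases before the start. ANKRD1 held them 2 times, at 220 and 128 bases, with TGATTCA, the match to the loosened AP-1 pattern, at 195 bases. AMOTL2 held them once, at 69 bases, before its second listed start, and the window before its other listed start held none. Of 35116 RefSeq windows of this length, 11.9% held the TEAD letters at least once, 0.940% at least 2 times and 0.0826% at least 3 times. A match to TGANTCA was held by 6.57%. None of the 3 windows held a CArG box, the element bound by SRF, which 1.16% of all windows did. No match overlapped another in these windows. Of the 10 genes, 7 had an entry, with 10 windows in all, and the only further window with the TEAD letters was that of YAP1. CCN1, TEAD1 and TEAD4 had no entry. A match of letters is a description and not evidence of binding.

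The libraries carried the markers listed for PANC-1 as a carcinoma line. The epithelial keratins KRT8, KRT18 and KRT19 and the mesenchymal marker VIM were above 135 TPM in all libraries, although KRT7 did not exceed 0.297 TPM. KRT8, KRT18 and KRT19 were called higher with EB. VIM, at 5882 to 7771 TPM, was not called (limma adjusted p = 0.170). Of 15 markers of fibroblasts, leukocytes, endothelial and acinar cells, 8 were listed at 0 throughout and 2, COL1A1 and CD14, reached 1 TPM in any library. In pooled cells, fewer cells expressing a gene and less RNA per cell cannot be told apart. DMSO replicate 4 stood apart, with 39.0% of its TPM in mitochondrially encoded genes against 11.6% to 21.1% in the other 7 libraries.

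With DMSO, WWTR1 was the most abundant of the 10 genes at 151.3 ± 43.1 TPM (SD, n = 4), followed by TEAD4 at 80.7 ± 15.8 TPM. The lowest WWTR1 library and the highest TEAD4 library nearly met, at 93.5 and 93.4 TPM. YAP1 (37.3 ± 8.32 TPM), CCN1 (35.2 ± 6.13) and TEAD2 (29.0 ± 5.78) came next, and their ranges overlapped. TEAD3 (21.2 ± 3.55 TPM) and AMOTL2 (18.8 ± 4.52) also overlapped with each other. TEAD1 at 7.68 ± 2.51 TPM and CCN2 at 2.07 ± 0.605 TPM were each below every library of the gene above them. ANKRD1 was listed at 0 in all 4 DMSO libraries. CCN2 and ANKRD1 were therefore the lowest of the 10 genes in vehicle-treated cells.

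The 2 treatments were set against each other with limma, using log2(TPM + 1) and the 11725 genes that reached 1 TPM in 4 or more libraries, and a gene was called at a Benjamini-Hochberg adjusted p under 0.05 over all of them. On this scale the change of low genes is understated. Of the 10 genes, 9 passed this filter and 4 were called, CCN1 and CCN2 higher and YAP1 and TEAD3 lower with EB. That is to be read against 40.3% of all tested genes called in either direction, 15.2% higher and 25.1% lower. Across the 11725 genes the log2 fold change had a median of −0.11. With 1 library left out, 2 to 6 of the genes were called, 2 without DMSO replicate 1, 2 or 3 or EB replicate 3 or 4. Over all genes the count was then 3350 to 6042. At the thresholds the study names, which are 0.05 for the unadjusted p and 1.5 for the size of the log2 fold change, only CCN1 remained, where 2.08% of all tested genes pass. In the 70 possible assignments of 8 libraries the smallest p of an exact two-sided permutation test is 0.0286, and it is reached where the 2 groups do not overlap, as in 36.8% of all tested genes.

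**Figure D1:**
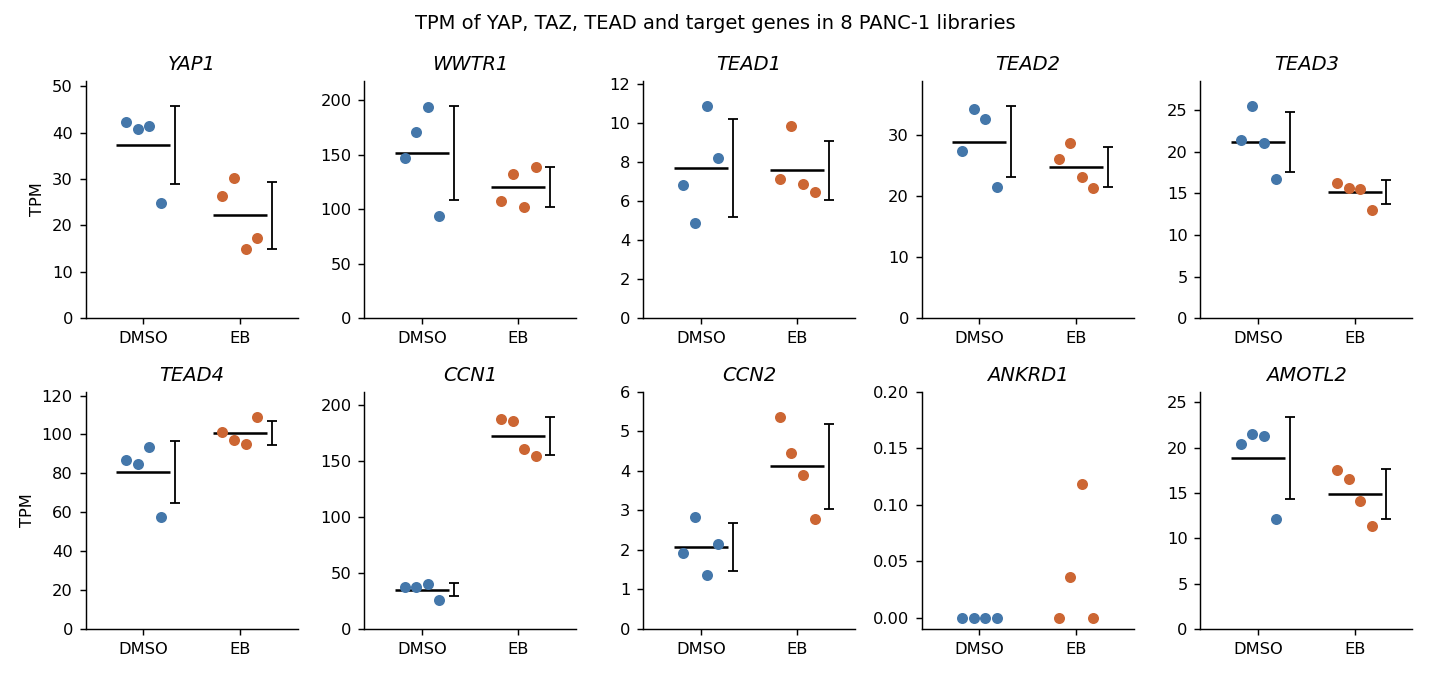
TPM of each of the 10 genes (vertical axis, linear, a separate scale in each panel) in the 4 DMSO (blue) and 4 EB (orange) libraries, drawn from left to right as replicates 1 to 4. Horizontal lines are group means and bars the SD, neither of which is drawn for ANKRD1. CCN1 lay between 26.1 and 39.8 TPM with DMSO and between 155 and 188 TPM with EB.

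CCN1, a secreted matricellular protein that binds integrins, showed the largest change of the 9 tested genes. In hg38 it occupies bases 85580761 to 85584589 of chromosome 1, plus strand. Its TPM was 37.2, 37.5, 39.8 and 26.1 in DMSO replicates 1 to 4 and 187.7, 186.0, 161.1 and 154.7 in EB replicates 1 to 4. The lowest EB library was far above the highest DMSO library, and DMSO replicate 4 was below the other 3 DMSO libraries. The mean TPM was 4.90 times that with DMSO, and the log2 fold change was 2.27 (standard error 0.16, limma adjusted p = 3.09e-05). Without DMSO replicate 4 the log2 fold change was 2.14. Only 11 of the 11725 tested genes had a higher log2 fold change. The call held in each of the 17 refits, with a log2 fold change between 2.10 and 2.39 and an adjusted p of at most 0.000258 from limma.

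CCN2, the closest relative of CCN1 among the 10 genes and like it a matrix-associated factor, also rose but from a level near the filter. The gene lies on chromosome 6 from 131948176 to 131951372, and its upstream bases are printed above. With DMSO its TPM was 1.93, 2.82, 1.36 and 2.15, and with EB 5.36, 4.45, 3.89 and 2.79. The groups overlapped only in that EB replicate 4, at 2.79, was just below DMSO replicate 2, at 2.82. The log2 fold change was 0.74 (standard error 0.19, limma adjusted p = 0.0146) and the exact permutation test gave p = 0.0571. With a pseudocount of 0.1 the fold change was 0.97, and it stayed past the threshold in all 16 refits in which the gene was tested (limma adjusted p at most 0.0447). The TPM ratio of CCN1 to CCN2 within a library was 12.1 to 29.3 with DMSO and 35.0 to 55.4 with EB. The other 4 genes of the CCN family were not tested, 2 of them listed at 0 in every library.

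ANKRD1, a nuclear ankyrin repeat protein of muscle and epithelium, was not tested. It was listed at 0 with DMSO and in EB replicates 1 and 4, and at 0.036 and 0.118 TPM in EB replicates 2 and 3. AMOTL2, a junction scaffold that binds YAP and is also its target, had a TPM of 20.4, 21.5, 21.3 and 12.1 with DMSO and 17.5, 16.6, 14.1 and 11.4 with EB. Its EB libraries were below DMSO replicates 1 to 3, and DMSO replicate 4 was in the range of the EB libraries. The log2 fold change was −0.30, with a 95% interval from −0.76 to 0.16 (limma adjusted p = 0.261). The TPM ratio of CCN1 to AMOTL2, which does not depend on the scaling between libraries, was 1.74 to 2.16 with DMSO and 10.7 to 13.6 with EB. The 4 target genes therefore gave 2 rises, 1 gene not past the threshold and 1 gene that was hardly detected.

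YAP1 fell with EB. It is found at bases 102110447 to 102233424 of chromosome 11, plus strand, and its TPM was 42.3, 40.7, 41.3 and 24.8 with DMSO and 26.2, 30.2, 14.9 and 17.2 with EB. DMSO replicates 1 to 3 were above every EB library, whereas DMSO replicate 4 lay inside the EB range. The log2 fold change was −0.75 (standard error 0.25, limma adjusted p = 0.0368), or −0.64 relative to the median of all tested genes, and the exact permutation test gave p = 0.0857. Without EB replicate 3 it was −0.59 (limma adjusted p = 0.102) and the call was also lost without DMSO replicate 1, 2 or 3 or EB replicate 4, where the adjusted p was 0.0858 to 0.0906. It was lost as well when genes of any level were tested (limma adjusted p = 0.0699). Without DMSO replicate 4 the log2 fold change was −0.93 (limma adjusted p = 0.00963).

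WWTR1, whose product TAZ is the paralog of YAP, was more abundant than YAP1 in every library. Its TPM was 146.8, 171.0, 194.1 and 93.5 with DMSO and 107.3, 132.1, 101.8 and 139.3 with EB. The groups overlapped and the log2 fold change was −0.29, with a 95% interval from −0.79 to 0.20 (limma adjusted p = 0.315). Without DMSO replicate 4 it was −0.51 and past the threshold (limma adjusted p = 0.0219). The TPM ratio of WWTR1 to YAP1 within a library was 3.47, 4.20, 4.70 and 3.76 with DMSO and 4.09, 4.38, 6.82 and 8.08 with EB. EB replicates 3 and 4 had the highest ratios, and EB replicates 1 and 2 lay among the DMSO libraries. The TPM ratio of CCN1 to YAP1 was 0.880 to 1.05 with DMSO and 6.16 to 10.8 with EB, so that CCN1 rose while the mRNA of YAP1 fell.

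The 4 TEAD genes encode the DNA-binding partners of YAP and TAZ, and limma called 1 of them, TEAD3. TEAD3, on chromosome 6 from 35473597 to 35497079, had a TPM of 21.4, 25.5, 21.1 and 16.8 with DMSO and 16.3, 15.7, 15.5 and 13.1 with EB. All EB libraries lay below all DMSO libraries, by a narrow gap to DMSO replicate 4, and TEAD3 fell by 0.45 on the log2 scale (standard error 0.15, limma adjusted p = 0.0342, exact permutation test p = 0.0286). With 1 library left out the call was kept only without DMSO replicate 4, and the adjusted p was 0.0548 to 0.103 without any of the other 7, at a log2 fold change from −0.48 to −0.36. TEAD4, the most abundant of the family, had a TPM of 86.9, 84.7, 93.4 and 57.7 with DMSO and 101.4, 97.3, 94.9 and 108.9 with EB. Here every EB library was above every DMSO library (exact permutation test p = 0.0286), but the log2 fold change of 0.34 was not past the threshold of limma (95% interval −0.02 to 0.70, adjusted p = 0.120). Without DMSO replicate 4, the lowest DMSO library, it was 0.19 (limma adjusted p = 0.133), and with the mitochondrial genes removed the groups overlapped. TEAD2 had a TPM of 27.5, 34.3, 32.7 and 21.5 with DMSO and 26.2, 28.8, 23.2 and 21.4 with EB, and its log2 fold change was −0.20 (95% interval −0.58 to 0.18). TEAD1, the lowest of the family, had a TPM of 6.80, 4.87, 10.8 and 8.19 with DMSO and 7.14, 9.82, 6.89 and 6.48 with EB, and its log2 fold change was 0.02 (95% interval −0.47 to 0.50). The groups overlapped in both genes, and neither was past the threshold.

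**Figure D2:**
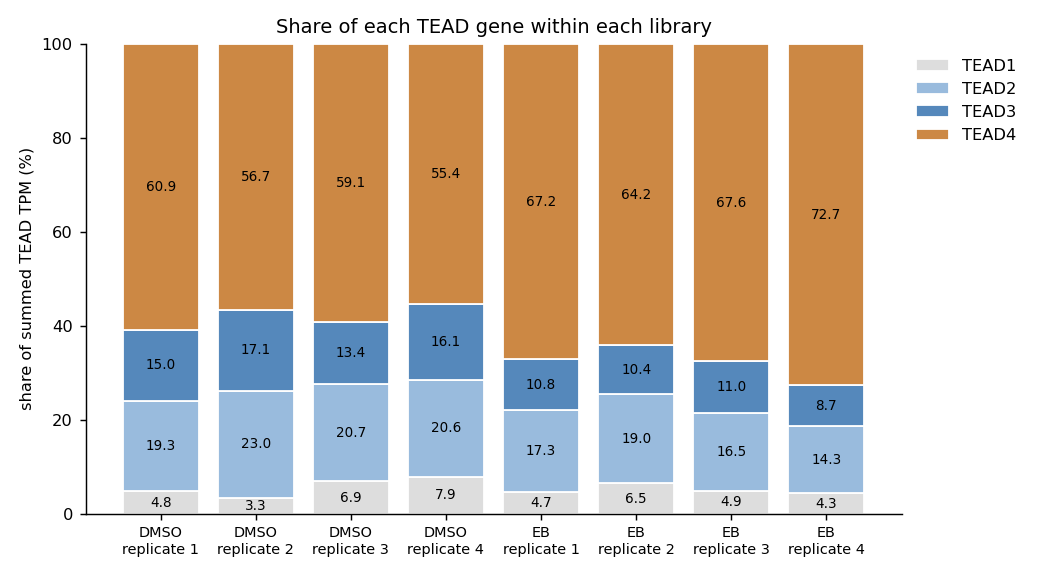
Share of each TEAD gene (percent of the summed TPM of the 4 genes, stacked from TEAD1 at the bottom to TEAD4 at the top) in each of the 8 libraries. TEAD4 took 55.4% to 60.9% with DMSO and 64.2% to 72.7% with EB.

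Within a library the makeup of the TEAD family does not depend on the scaling of that library. It was not corrected for the length and GC content of the transcripts, which are taken up below. The share of TEAD4 in the summed TPM of the family was 58.0% ± 2.46 (SD, n = 4) with DMSO and 67.9% ± 3.54 (SD, n = 4) with EB, without overlap. The share of TEAD3 was 15.4% ± 1.59 and 10.2% ± 1.05, and that of TEAD2 20.9% ± 1.52 and 16.8% ± 1.97, also without overlap. The share of TEAD1 was 3.26% to 7.87% with DMSO and 4.33% to 6.47% with EB, which overlapped. The summed TPM of the 4 genes was 104.1 to 158.0 with DMSO and 140.5 to 151.7 with EB. The 104.1 was DMSO replicate 4, and the other 3 DMSO libraries held 142.6 to 158.0, so that with or without it the groups overlapped. As shares of a sum are tied to each other, they are given without a test.

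Technical features of the libraries moved with some of these values. The mitochondrially encoded genes took 17.0% to 21.1% of the TPM in DMSO replicates 1 to 3, 39.0% in DMSO replicate 4 and 11.6% to 20.3% with EB, and a larger share lowers the TPM of every nuclear gene. With these genes removed and the TPM rescaled, the median over tested genes was −0.28, and 6 of the 10 genes were called, CCN1 and CCN2 higher and YAP1, TEAD2, TEAD3 and AMOTL2 lower. Leaving out DMSO replicate 4 also gave 6 calls, with WWTR1 in place of TEAD2. Under median-ratio scaling, with a median of −0.01, there were 5, the added gene being TEAD4 (log2 fold change 0.45, limma adjusted p = 0.00718). In the same order, 6405 of 11967, 6042 of 11589 and 6120 of 11725 of all tested genes were called. CCN1, CCN2 and TEAD4 stayed above 0 and YAP1, TEAD2 and TEAD3 below 0 under every scaling, while TEAD1, WWTR1 and AMOTL2 did not keep their sign. Of all genes called, 37.7% were higher with EB as deposited, 49.7% with median-ratio scaling, 50.3% with quantile normalization, 52.8% after correction for length and GC content and 22.7% without the mitochondrial genes.

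**Figure D3:**
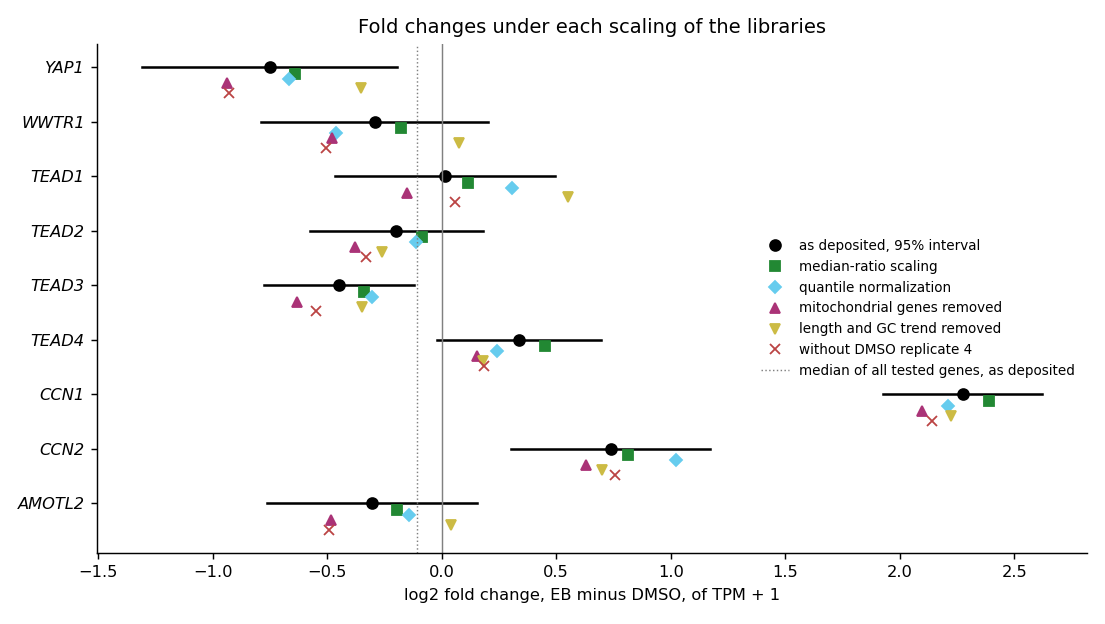
Log2 fold change of TPM + 1, EB minus DMSO (horizontal axis), of the 9 tested genes as deposited (black points, lines are 95% intervals from limma) and under 4 other scalings or without DMSO replicate 4 (coloured marks). CCN1 lay between 2.10 and 2.39 under all of them, and WWTR1, TEAD1 and AMOTL2 fell on both sides of 0.

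The fold changes of all genes fell with the length of the transcript, from a median of 0.41 in the shortest of 10 equal classes to −0.54 in the longest. YAP1, WWTR1 and AMOTL2, with canonical transcripts of 5401, 5037 and 4868 nucleotides, fall in the same class, whose median was −0.35, close to the −0.29 of WWTR1 and the −0.30 of AMOTL2. TEAD4, with 1710 nucleotides, lay in a class with a median of 0.24, and CCN1 and CCN2, with 2278 and 2338, in one with a median of 0.04. TEAD1, with 9417 nucleotides, lay in the longest class. After a smooth trend of the values on length and GC content was taken out of each library, CCN1 was at 2.23 and CCN2 at 0.70, both called, and TEAD3 at −0.35 was also called. YAP1 was then at −0.35 and no longer past the threshold (limma adjusted p = 0.113), WWTR1 was at 0.0759 and AMOTL2 at 0.0391. Of the other TEAD genes, TEAD4 was at 0.18, TEAD2 at −0.26 and TEAD1 at 0.55 (limma adjusted p = 0.171, 0.0585 and 0.0707). What else differs with length was not tested.

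**Figure D4:**
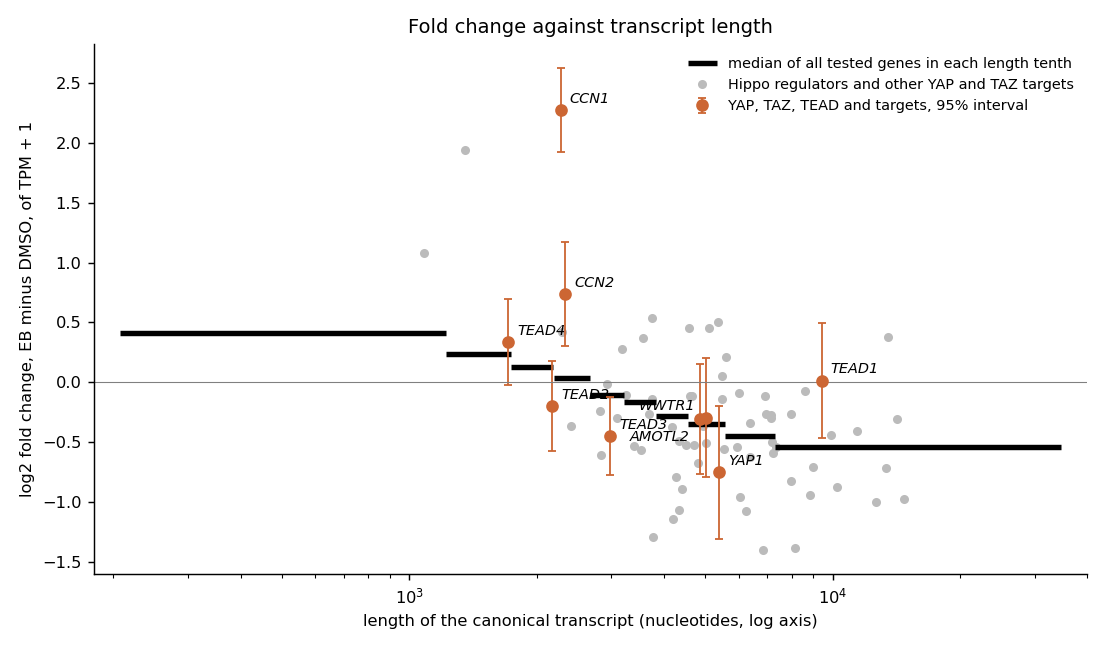
Log2 fold change of TPM + 1, EB minus DMSO (vertical axis), against the length of the canonical transcript in nucleotides (log axis), with the 9 tested genes in orange (95% intervals from limma), genes of the Hippo pathway and other targets in grey, and the median of all tested genes in each of 10 length classes as black bars. The bars descend from 0.41 to −0.54, and of the 9 genes CCN1 stands furthest above the bar of its own class.

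Upstream of YAP and TAZ, 64 genes were listed by role, of which 55 were tested. Limma called 21 of them, 4 higher and 17 lower with EB, or 38.2%, which is near the 40.3% of all tested genes. Their median log2 fold change was −0.34 against −0.11 for all, and the median length of their transcripts was 5352 nucleotides against 3216.5 for all. After correction for length and GC content 15 were called higher and 7 lower, with a median of −0.01. Without the mitochondrial genes 40 were called, 2 higher and 38 lower, and the count was 36, with 3 higher and 33 lower, without DMSO replicate 4, 9 without DMSO replicate 2, 10 without DMSO replicate 3, 11 without EB replicate 3 and 14 without EB replicate 4. Of all tested genes, 6405 of 11967 were called without the mitochondrial genes, 1451 higher and 4954 lower. Without DMSO replicate 4 the count over all genes was 6042 of 11589, with 1824 higher and 4218 lower. For the other libraries left out it was 3370, 3353, 3350 and 3841, in the order given above. After correction for length and GC content 5398 of 11685 were called, 2850 higher and 2548 lower.

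Among the Hippo kinases and adaptors, 7 of 21 tested genes were lower, none was higher, and all 21 fold changes were below 0. The 33.3% called compares with 40.3% of all tested genes, of which 25.1% were lower, and 6723 of all 11725 fold changes were below 0. After correction for length and GC content 4 of the 21 were lower and 1 was higher. Without the mitochondrial genes 20 were lower, as were 4954 of all 11967 genes tested. Without overlap between the groups, MAP4K3 (log2 fold change −1.06), TAOK1 (−0.997) and MAP4K5 (−0.79), kinases that can feed into LATS1 and LATS2, fell, as did MOB1A (−0.34), the adaptor of the LATS kinases. For TAOK1, DMSO libraries held 13.1 ± 2.68 TPM and EB libraries 5.99 ± 0.516 TPM (each SD, n = 4). Of the core kinases, STK3 fell by 0.60 on the log2 scale (limma adjusted p = 0.0230), whereas STK4 (−0.34), LATS1 (−0.54) and LATS2 (−0.56) were not past the threshold. Without DMSO replicate 4 all 3 were called, at −0.47, −0.71 and −0.72 (limma adjusted p = 0.0103, 0.0267 and 0.0109). The call of STK3 was lost with quantile normalization and without DMSO replicate 2 or 3 or EB replicate 3 or 4. NF2, which encodes the membrane-linked activator merlin, fell by 0.54. After correction for length and GC content NF2 was at −0.12 and MOB1A at 0.0039, neither of them called, and NF2 was not called without 5 of the 8 libraries in turn nor MOB1A without 6. MOB1A was not called with median-ratio scaling either (−0.22, limma adjusted p = 0.151). TAOK1 and MAP4K5 were called in all of their refits. MAP4K3, with 1.22 TPM in EB replicate 4 and 5.04 to 5.51 in the other EB libraries, was not called without DMSO replicate 2 or 3, with no filter, with quantile normalization or after correction for length and GC content.

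Of 13 tested genes of junctions and polarity, 4 were lower and 1 was higher, or 38.5% against 40.3% of all tested genes. After correction for length and GC content the direction turned, with 5 higher and 0 lower. CRB3, a small apical polarity protein, was at 0.292 ± 0.305 TPM with DMSO and 1.70 ± 0.463 TPM with EB (each SD, n = 4). It reached 1 TPM in the EB libraries alone and so entered the test through the group where it is high, which means that its call, the 1 higher gene of this list, is a description only. The tight junction scaffold TJP1 (−0.50) fell as deposited, but not after correction for length and GC content. In the STRIPAK complex, which carries protein phosphatase 2A to the Hippo kinases STK3 and STK4, 3 of 11 tested genes were higher and 1 was lower, or 36.4% against 40.3% of all. The higher ones were MOB4 (0.54) and the phosphatase subunits PPP2R1A (0.51) and PPP2CA (0.46), and the lower one was the scaffold STRN3 (−1.14), which went from 18.0 ± 2.81 TPM down to 7.69 ± 1.89 TPM (each SD, n = 4). Without the mitochondrial genes MOB4 and PPP2CA were not called and the 11 genes split into 1 higher and 4 lower, whereas 7 were higher and 1 lower after correction for length and GC content and 5 higher and 1 lower with median-ratio scaling. The call of MOB4 was also lost with no filter and without 5 of the 8 libraries in turn, that of PPP2CA with quantile normalization, and that of PPP2R1A without 5 of the 8 libraries in turn. It was at 0.37 and still called without DMSO replicate 4. Of 7 tested genes for degradation or phosphorylation of YAP, FBXW11 (−0.89), a ubiquitin ligase subunit, and NLK (−0.56) fell, or 28.6% against 40.3% of all. For NLK the groups overlapped, with a limma adjusted p of 0.0442 and p = 0.0571 in the exact permutation test. After correction for length and GC content 2 of the 7 were higher and 1 was lower.

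VGLL4, which competes with YAP and TAZ for the TEAD factors, fell most of the 55 tested genes. Its TPM was 60.3, 58.6, 65.7 and 36.9 with DMSO and 24.2, 27.8, 16.9 and 18.8 with EB, so all EB libraries lay below all DMSO libraries. The log2 fold change was −1.29 (standard error 0.21, limma adjusted p = 0.00178), and it was called in all 17 refits with values from −1.48 to −1.08. The coactivator NCOA3 (−0.82) also fell, but its groups overlapped (limma adjusted p = 0.0478, exact permutation test p = 0.0857). The 3 tested cofactors were all called lower, where 40.3% of all tested genes were called and 25.1% were lower. After correction for length and GC content only 1 of the 3, VGLL4, was called. VGLL1 and VGLL2 were listed at 0 in all libraries and VGLL3 was at most 0.0277 TPM.

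**Figure D5:**
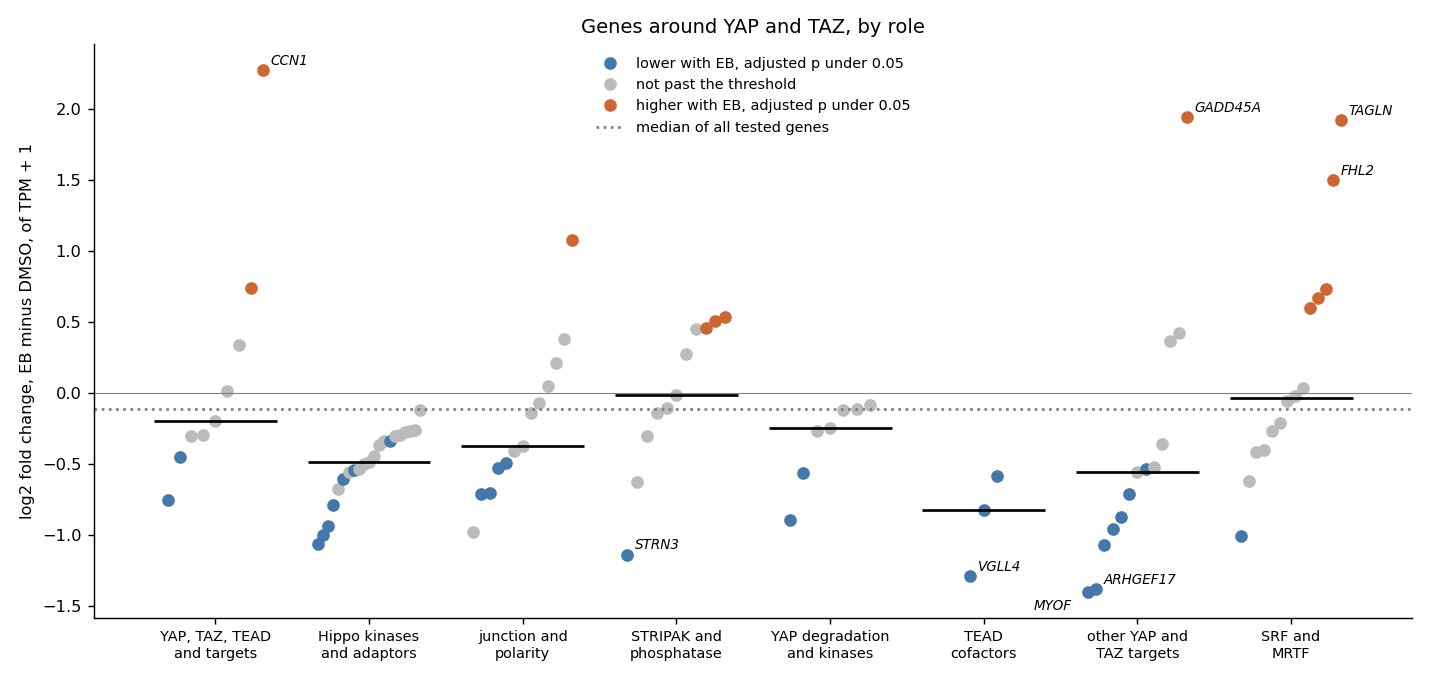
Log2 fold change of TPM + 1, EB minus DMSO (vertical axis), of the tested genes in each list (points, ordered by value within a list and coloured by the limma call), with the median of each list as a black line and that of all tested genes as a dotted line at −0.11. The lists of Hippo kinases and of other targets lie mostly below that line, and CCN1, GADD45A, TAGLN and FHL2 stand furthest above it.

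A further 18 genes that are widely read as YAP and TAZ targets were listed, and 13 of them were tested. Limma called 7 lower and 1 higher with EB, or 61.5% against 40.3% of all tested genes, of which 25.1% were lower and 15.2% higher. The median log2 fold change of the list was −0.56 against −0.11, and its median transcript length 5546 nucleotides against 3216.5. MYOF, a membrane repair protein, stood at 192.4 ± 50.5 TPM with DMSO and 72.1 ± 19.6 TPM with EB (each SD, n = 4) and fell by 1.40 on the log2 scale. ARHGEF17 (−1.38), ASAP1 (−1.07), CRIM1 (−0.96) and DOCK5 (−0.87) fell as well, without overlap between the groups. ARHGEF17 was at −1.60 without DMSO replicate 4. These 5 genes were called in all of their refits, also after correction for length and GC content, where the list gave 7 lower and 2 higher calls. GADD45A, a stress and growth arrest gene, was at 27.8 ± 6.02 TPM with DMSO and 108.1 ± 11.98 TPM with EB (each SD, n = 4), and its log2 fold change was 1.94. IGFBP3 was listed at 0 in every library. LATS2 and PTPN14 stand both here and among the regulators. Targets of YAP and TAZ were thus found on both sides, with CCN1, CCN2 and GADD45A higher and 7 others lower.

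SRF and its MRTF coactivators, which respond to actin and drive cytoskeletal genes, are a second known input to CCN1 and CCN2. Of 15 listed genes, 14 were tested, and 5 were higher and 1 was lower with EB, or 42.9%, near the 40.3% of all tested genes, with a median log2 fold change of −0.04. TAGLN, an actin-binding protein, was at 9.03 ± 2.29 TPM with DMSO and 36.5 ± 5.23 TPM with EB (each SD, n = 4), and its log2 fold change was 1.92 (limma adjusted p = 0.000133). FHL2 (1.497), MYL9 (0.73), TPM2 (0.67) and ACTB (0.60) also rose. MRTFB fell by 1.01 on the log2 scale, and SRF (−0.40) and MRTFA (−0.05) were not past the threshold. TAGLN, FHL2, MYL9 and TPM2 were called in all of their refits, and ACTB was not called without any 1 library other than DMSO replicates 1 and 4, with no filter or with quantile normalization. MRTFB was not called after correction for length and GC content, where the list gave 7 higher and 1 lower. It gave 4 higher and 4 lower with quantile normalization, and 5 higher and 5 lower both without the mitochondrial genes and without DMSO replicate 4, where FHL2 was at 1.35. Other genes of the actin cytoskeleton in the list, such as VCL (−0.62), FLNA (−0.41) and MYH9 (−0.26), were not past the threshold.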

How the data were processed

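RNA sequencing of PANC-1 cells gave 1 table of TPM, which the authors deposited for 20263 genes in 8 libraries, 4 with DMSO and 4 with EB. As the methods state, reads were trimmed, mapped, counted and normalized in CLC Genomics Workbench, further tools are named, and hg38 and a mouse build both appear. The identifiers are human. The use of strand in counting is not given in the sources used here. TPM have a fixed sum, so depth, and with it counting error, is unknown.

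Symbols and positions came from GENCODE release 44 on hg38, which may differ from the authors' annotation, and lengths and GC content from the canonical transcript of each gene. Genes reaching 1 TPM in 4 or more libraries were tested as log2(TPM + 1) by limma 3.58.1 in R 4.3.3 (lmFit, eBayes, prior degrees of freedom 3.88), with Benjamini-Hochberg adjustment over all tested genes. Single genes were also tested by an exact two-sided permutation test. Python 3.11.15, pandas 2.3.3 and matplotlib 3.10.9 served for tables and plots.

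The 10 genes and all lists were chosen with earlier results of these data known. Of each list the text names at most the 6 genes with the largest absolute log2 fold change among those called without overlap of the groups, except that some are not reported here. STK3, STK4, LATS1, LATS2 and NF2 were added for their role, and NLK, NCOA3, VCL, FLNA, MYH9, SRF, MRTFA, IGFBP3, the VGLL genes and FAT1 after their values were seen. The refits used quantile normalization, 0.1 as the pseudocount, all genes, only genes reaching 5 TPM, scaling by median ratios, removal of mitochondrial genes, removal of the trend on length and GC content, an intensity trend, a replicate block and each library left out. On simulated data limma called 97% of 100 genes with an absolute log2 change of 2 and 63% of 100 with a change of 1, all with the right sign, and 9 of 11635 unchanged genes. The simulation changed 200 genes and drew the noise of each gene on its own. It held no shift of a whole library and no trend on length, so these rates are not error rates of the real comparison.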

Additional observations from a re-analysis of the deposited data

Results flagged for a closer look

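In 76 groups of 4 libraries, each gene named by the rules or by role was checked for 1 library far from the other 3, by the gap to its nearest neighbour divided by the range of log2(TPM + 1), against the 95% critical value of Dixon for 4 values. Chance alone gives about 1 in 20 groups, and 8 groups passed.

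DMSO replicate 4 was the library in 6 of the 8, and was the lowest DMSO value in each, with a ratio of 0.931 for YAP1 (24.8 TPM), 0.840 for CCN1 (26.1 TPM), 0.906 for AMOTL2 (12.1 TPM), 0.867 for PPP2R1A (111.0 TPM), 0.966 for ARHGEF17 (9.47 TPM) and 0.837 for FHL2 (58.1 TPM). The mitochondrial share of the same library was 39.0%, and its part in these values was measured only by the rescaling without mitochondrial genes.

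The other 2 were EB replicate 4 for MAP4K3 (0.930, at 1.22 TPM) and DMSO replicate 3 for MOB1A (0.979, at 57.1 TPM).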

How the results depend on the processing

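Of 638 refits of 38 named genes, 555 kept their direction and their side of the threshold, 61 lost the call, 14 gained it and 8 changed sign. The sign changed for WWTR1 (0.0759), AMOTL2 (0.0391), MOB1A (0.0039) and STK4 (0.12) with the length and GC trend removed, and for TEAD1 without the mitochondrial genes (−0.15) and without DMSO replicate 1 (−0.021), DMSO replicate 2 (−0.16) or EB replicate 2 (−0.10). None of these 8 values was past the threshold.

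At the thresholds of the study 244 genes of all tested were called in place of 4729, and 1 of the 10 genes, 0 of the upstream regulators (21 at the adjusted p, and 29 at an unadjusted p under 0.05 with no fold threshold) and 1 of the other targets. The 244 were 63 higher and 181 lower with EB. The study's own counts of upregulated and downregulated genes differ from these in total and in balance, and the reason was not tested. Without the mitochondrial genes 40 upstream regulators were called, as were 6405 of all 11967 genes tested. With a TPM of at least 5, which fewer genes reach, 5 of the other targets were called in place of 8. The groups of 5 of the 10 genes did not overlap under median-ratio scaling and 5 under quantile normalization, in place of 3. With 1 library left out, the counts were 3350 to 6042 for all genes, 2 to 6 for the 10 genes (2 without DMSO replicate 1, 2 or 3 or EB replicate 3 or 4), 9 to 36 for the upstream regulators (9 without DMSO replicate 2, 10 without DMSO replicate 3, 11 without EB replicate 3, 14 without EB replicate 4 and 36 without DMSO replicate 4) and 7 to 11 for the other targets. The groups of 3 to 6 of the 10 genes did not overlap with 1 library left out, 6 of them without DMSO replicate 4. The share of all tested genes without overlap was taken only as deposited, where it was 36.8%. Counts of genes without overlap under the other scalings, or with 1 library left out, therefore cannot be read as a result about the 10 genes. The causes were not tested.

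Whether replicate numbers paired the libraries could not be decided, because the correlations were mixed. The deviations of same-numbered libraries from their group means correlated at 0.18, 0.05, −0.09 and 0.28 across genes. DMSO and EB replicate 1 correlated best with each other, as did DMSO and EB replicate 4. The remaining libraries did not correlate best with their own number. With a replicate block 5756 genes were called, 4 of the 10 genes, 27 upstream regulators and 10 other targets. Without it 4729 genes were called, 4 of the 10 genes, 21 upstream regulators and 8 other targets.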

Other observations

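FAT1, an atypical cadherin listed among the regulators, differed between libraries of 1 group far more than its neighbours. Its TPM was 14.8, 39.5, 37.5 and 7.71 with DMSO and 6.59, 7.55, 5.43 and 33.3 with EB. High and low libraries occurred in both groups, and the log2 fold change of −0.98 was not past the threshold (limma adjusted p = 0.226).

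The 3 tested genes whose profile over the 8 libraries, centred on its mean, was most like that of CCN1 were KLF2, STX1A and PHGDH, with a root mean square difference of 0.145, 0.160 and 0.170 on the log2(TPM + 1) scale. For YAP1 they were N4BP2L1, RPS6KC1 and ST3GAL3 (0.0898 to 0.112), for TEAD4 CDH24, HDAC8 and CDC42BPA (0.0551 to 0.0741), for TEAD3 PHF10, TLK2 and ZNF75D (0.0470 to 0.0631) and for CCN2 HES7, SLC16A14 and SCCPDH (0.124 to 0.192). This is a description over 8 libraries in 2 groups.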
